A study of Mus musculus with 6 samples.

Results

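The mitochondrial protein import machinery brings nuclear-encoded proteins into mitochondria and was represented by 37 of the 54532 genes in the table. The members were chosen by gene name: every row starting with Timm or Tomm, plus Pam16, Dnajc15, Dnajc19, Samm50, Mtx1, Mtx2, Chchd4, Gfer, Pmpca and Pmpcb, without pseudogenes. RNA sequencing had been run on activated mouse CD8 T cells, the cytotoxic T cell lineage, purified from spleen and lymph nodes. The cells carried a knockout of Ptpmt1 (KO, n = 3) or were wild type (WT, n = 3). Cells of both groups had been stimulated in culture for 3 days with beads coupled to CD3 and CD28 antibodies, a substitute for antigen and costimulation. Ptpmt1 encodes a phosphatase of the inner mitochondrial membrane that acts in the synthesis of cardiolipin, a lipid on which several membrane complexes there depend. The labels used here do not name the knockout allele, any Cre driver, or the age and sex of the mice, and do not say whether replicates were separate animals. What the p-values weigh is thus the scatter among these 6 libraries, part of which may be technical.

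Nearly all mitochondrial proteins are made in the cytosol and cross the membranes as unfolded chains. They enter through the TOM complex of the outer membrane and are then sorted. Proteins with a cleavable presequence go to the TIM23 translocase and are pulled into the matrix by a motor that works with the chaperone Hspa9, after which the presequence is cut off. Carriers with several membrane spans are escorted by small TIM chaperones to the TIM22 translocase, barrel proteins are inserted by the SAM complex, and small cysteine-rich proteins are trapped in the intermembrane space by an oxidative relay. Activated T cells enlarge their mitochondria as they grow, and therefore import many proteins.

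Rebuilt reads totalled 14932604 to 16819913 per library. FPKM are fragments scaled to gene length and to a total per library. That total was not the number of reads. It was 0.941, 0.780 and 1.096 times the rebuilt reads in KO replicates 1 to 3, and 0.995, 1.028 and 1.072 times in WT replicates 1 to 3. Ptpmt1 had 1.0004, 1.58 and 1.504 FPKM in KO replicates 1 to 3, against 3.75, 3.84 and 4.13 FPKM in WT replicates 1 to 3. Each KO library thus lay below each WT library (log2 fold change -1.26, SE 0.198, limma adjusted p = 0.0884). KO replicate 3 stood apart: it had 0 reads of Xist, which female cells express from the inactive X, and 1837 reads of the Y-linked Ddx3y. In each of the others Xist had 3513 reads or more and Ddx3y had 0. By these reads KO replicate 3 came from male cells and the other libraries from female cells, so sex was uneven between the groups. Mitochondrially encoded genes took 4.398%, 7.53% and 2.38% of reads in KO replicates 1 to 3, and 3.38% to 4.76% in WT libraries. The markers of CD8 T cells (Cd3d, Cd3e, Cd3g, Cd8a, Cd8b1 and Trac) were present in every library, with a summed level of 828 to 1528 FPKM in KO and 1328 to 1719 FPKM in WT. Of the other markers, those of gamma-delta T cells summed to 18.5, 46.0 and 111.2 FPKM in KO replicates 1 to 3 and to 16.2 to 34.1 FPKM in WT. The sums were 7.08 to 28.3 in KO and 3.39 to 11.3 in WT for neutrophils and mast cells, with Ly6g and Mcpt4 at 0 throughout, and 13.4 to 15.04 in KO and 18.6 to 25.0 in WT for B cells. Each of the remaining other-cell lists summed to at most 13.9 FPKM in any library. The part of these differences between libraries in the results below was not tested. In such bulk samples, fewer cells of a type and less RNA per cell cannot be told apart.

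Most import genes had higher mRNA levels in KO than in WT, and none passed the threshold over all genes. Of the 37 members, 33 had a mean of at least 0.5 FPKM and were tested, with mean levels from 0.882 to 181.2 FPKM. The fold change was above 0 for 29 of these 33, against 52.4% of all 12654 genes tested. Their median log2 fold change was 0.62, and that of all genes 0.03. Fold changes varied with gene length: for genes of at most 3183 bases, the members' median length, the median was 0.68 over 17 members and 0.11 over all 5650 such genes. For longer genes it was 0.47 over 16 members and -0.03 over all 7004. After Benjamini-Hochberg adjustment over all genes, limma called 0 members at an adjusted p under 0.05, where 0.0395% of all genes were called. At an unadjusted p under 0.05, 16 members were higher and 0 lower in KO, against 11.5% and 10.2% of all genes. In 16 members each KO library lay above each WT library (14.5% of all genes did so) and in 0 each lay below (13.3%). At an adjusted p under 0.1, a looser limit looked at after the values were known, there were 4 members (Timm23, Chchd4, Timm9 and Timm10), where 2.43% of all genes passed.

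**Figure D1:**
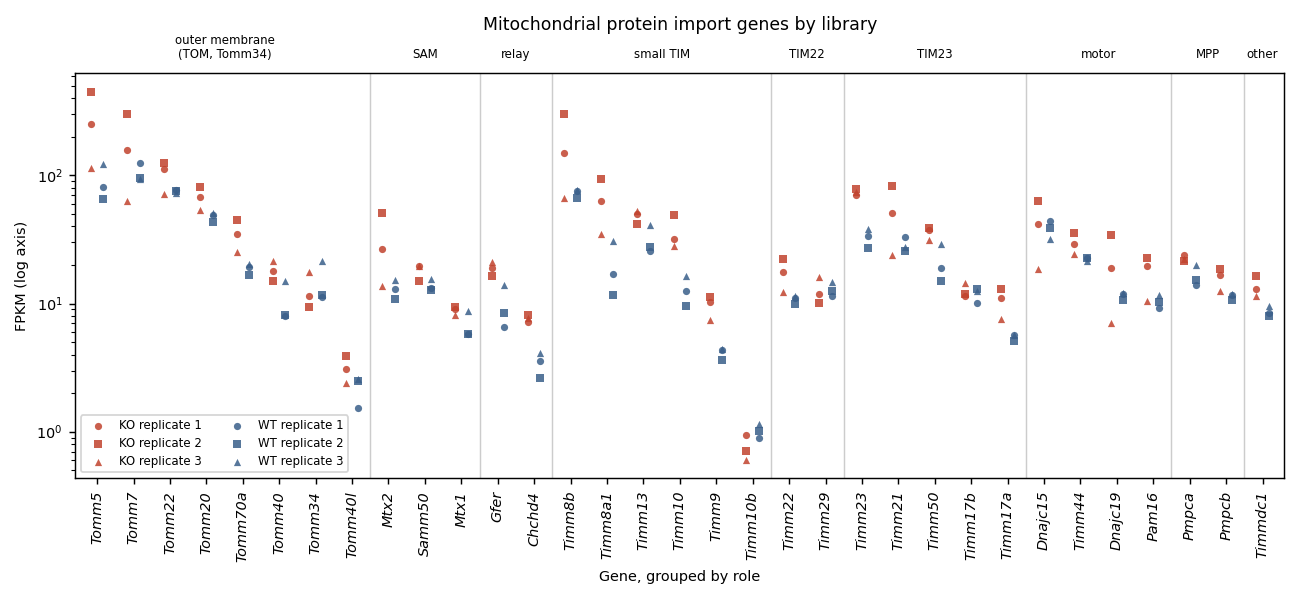
FPKM (log axis) of the 33 measured import genes in each library, grouped by role and ordered by mean level within a role; red, KO; blue, WT; the marker shape gives the replicate number. Tomm5, Tomm7 and Timm8b show KO replicate 2 at 3.95 to 4.77 times KO replicate 3, while the 3 KO points of Timm23 lie between 70.0 and 78.1 FPKM.

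The promoters of the members were searched because many members had higher levels together. RefSeq promoters (GRCm38.p6, the mm10 assembly, 250 bases before to 50 bases after the start) were found for 34 of the 37 members, 36 promoters in all. Motifs were matched on both strands. The E-box CACGTG, a sequence bound by MYC and related factors, was present in 6 of 36 (16.7%), against 7.15% of all 32851 promoters. These were the promoters of Timm9, Timm10, Timm8a1, Tomm20, Tomm20l and Tomm6os. Of these, Tomm20l and Tomm6os were under 0.5 FPKM and not tested, so they have no fold change to set beside the motif. GCGCATGC, part of the NRF1 motif, was in 1 of 36, that of Timm13 (2.71% of all), and the full motif, which adds GC at its end, in 0 of 36 (0.971% of all). The cyclic AMP response element TGACGTCA was in 0 of 36 (1.79% of all). TTGCATCA, a C/EBP and ATF element whose reverse complement is TGATGCAA, was in 0 of 36 (0.895% of all). A match is a string of letters and not a measured site.

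The 250 bases before the start, printed 5′ to 3′ on the strand of the gene, are shown for the measured members whose E-box lies wholly before the start and for Timm23, the member of smallest p, which has none. Capitals mark CACGTG. In Timm9 a further CACGTG begins at position -1, counted from the start, and so runs past the printed end; Timm8a1 has another inside the gene. Timm9 spans chr12:71136676-71136925, Timm8a1 chrX:134541671-134541920, Tomm20 chr8:126945922-126946171 and Timm23 chr14:32201892-32202141, all on the minus strand of GRCm38.p6.
Timm9: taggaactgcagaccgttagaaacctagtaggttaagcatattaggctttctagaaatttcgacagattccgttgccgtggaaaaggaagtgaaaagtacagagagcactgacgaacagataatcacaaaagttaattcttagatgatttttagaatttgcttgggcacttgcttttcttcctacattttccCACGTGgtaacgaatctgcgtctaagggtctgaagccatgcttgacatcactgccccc
Timm8a1: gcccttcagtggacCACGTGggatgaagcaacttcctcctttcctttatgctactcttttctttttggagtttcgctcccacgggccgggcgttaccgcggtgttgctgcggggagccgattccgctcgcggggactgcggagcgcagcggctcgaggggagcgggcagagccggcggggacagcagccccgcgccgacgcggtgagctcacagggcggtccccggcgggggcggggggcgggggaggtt
Tomm20: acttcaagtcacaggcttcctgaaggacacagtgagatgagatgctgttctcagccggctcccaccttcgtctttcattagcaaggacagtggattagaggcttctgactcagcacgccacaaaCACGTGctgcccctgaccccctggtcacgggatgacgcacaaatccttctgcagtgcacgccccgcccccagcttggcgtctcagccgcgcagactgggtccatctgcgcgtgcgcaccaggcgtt
Timm23: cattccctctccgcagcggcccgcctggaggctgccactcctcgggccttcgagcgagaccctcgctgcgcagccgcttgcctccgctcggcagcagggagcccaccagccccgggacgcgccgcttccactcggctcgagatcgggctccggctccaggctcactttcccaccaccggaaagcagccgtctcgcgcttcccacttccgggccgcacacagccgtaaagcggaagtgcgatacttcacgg

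The capitals begin at position -58 in Timm9, -236 in Timm8a1 and -126 in Tomm20, counted from the start. Of these genes, Timm9 and Timm8a1 had log2 fold changes of 1.11 and 1.67 and Tomm20 0.47, while Timm23, with no match to any searched motif, had 1.17.

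The TOM complex is the entry gate. Its receptors Tomm20, which binds presequences, and Tomm70a, which binds carrier precursors held by cytosolic chaperones, were both higher in each KO library than in each WT library. They were the only 2 of the 8 measured Tomm genes of which this was true, where 14.5% of all genes were higher without overlap. Tomm70a had 35.2, 44.9 and 25.2 FPKM in KO replicates 1 to 3, against 19.4, 16.8 and 20.2 FPKM in WT replicates 1 to 3 (log2 fold change 0.85, SE 0.232, limma adjusted p = 0.124). Tomm20 had 67.5, 80.9 and 53.4 FPKM in KO and 49.1, 43.0 and 51.2 FPKM in WT, with a log2 fold change of 0.47 (limma adjusted p = 0.230). The lowest KO value of Tomm20 exceeded the highest WT value by little. Tomm22, the central receptor that organises the complex, overlapped between groups, with 113, 124 and 72.1 FPKM in KO and 76.4, 75.5 and 73.1 FPKM in WT. KO replicates 1 and 2 lay above WT, and KO replicate 3 just below it.

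Tomm40, the barrel that forms the import pore, had 17.9, 15.01 and 21.5 FPKM in KO and 7.94, 8.12 and 15.1 FPKM in WT (log2 fold change 0.82, SE 0.279, limma adjusted p = 0.166). WT replicate 3 reached the level of KO replicate 2, and the other WT libraries were well below. Its paralogue Tomm40l was expressed at a lower level, with 3.07, 3.87 and 2.40 FPKM in KO and 1.53, 2.47 and 2.59 FPKM in WT. In GENCODE M21, 64.3% of the exon bases of Tomm40l overlap Nr1i3 on the opposite strand, and the strand setting of the counting is not given in the sources used here. Among the other tested members, the largest overlaps with an opposite-strand gene were 21.2% in Mtx1, 20.4% in Pmpca, 18.7% in Pam16 and 15.6% in Timm8b.

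The small TOM subunits, which steady the pore, varied widely among the KO libraries. Tomm5 had 253, 451 and 114 FPKM in KO and 81.5, 65.5 and 122.6 FPKM in WT (log2 fold change 1.43, SE 0.502, limma adjusted p = 0.173). KO replicate 3 lay within the WT range, and the others lay above it. Tomm7 showed the same order among KO libraries, with 159, 300.5 and 63.0 FPKM in KO and 124, 96.1 and 93.0 FPKM in WT. Its log2 fold change of 0.48 (SE 0.526) became -0.05 without KO replicate 2. Tomm34, a cytosolic cochaperone that carries the name but is no subunit of the complex, had 11.5, 9.47 and 17.6 FPKM in KO and 11.2, 11.6 and 21.4 FPKM in WT, with a log2 fold change of -0.17 (limma adjusted p = 0.783). Replicate 3 was the highest library of each group for this gene.

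In Tomm6, the remaining small subunit, the table holds 1 read over all 6 libraries. Of its 1131 annotated exon bases, 859 also belong to the gene Gm21981 on the same strand. The level of Tomm6 is therefore uncertain. Tomm20l, a paralogue of Tomm20, had 0 reads in every library, and the antisense transcript Tomm6os had 0, 1 and 12 reads in KO and 0, 0 and 3 reads in WT.

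At the outer membrane, the SAM complex inserts barrel proteins such as Tomm40. Samm50, its own barrel, had 19.7, 15.04 and 19.6 FPKM in KO and 13.1, 12.7 and 15.5 FPKM in WT (log2 fold change 0.38, limma adjusted p = 0.261). The partner Mtx2 had 26.6, 50.7 and 13.8 FPKM in KO and 12.9, 10.9 and 15.3 FPKM in WT (log2 fold change 1.01, SE 0.437, limma adjusted p = 0.235). Its KO mean rests on replicates 1 and 2, since KO replicate 3 lay within the WT range. Mtx1 had 9.04, 9.44 and 8.19 FPKM in KO and 5.78, 5.74 and 8.71 FPKM in WT, with a log2 fold change of 0.40. Of these 3 genes, 0 had an unadjusted p under 0.05, where 11.5% of all genes were higher and 10.2% lower. In 0 of the 3 did the groups not overlap, where 14.5% of all genes were higher and 13.3% lower without overlap.

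Both genes of the oxidative relay of the intermembrane space were higher in each KO library than in each WT library (14.5% of all genes were). Chchd4, the oxidoreductase known as MIA40 that folds incoming proteins by forming disulfides (ENSMUSG00000034203, mm10 chromosome 6, 91462172 to 91473546, minus strand), had 7.17, 8.16 and 7.71 FPKM in KO and 3.56, 2.63 and 4.13 FPKM in WT. The KO to WT difference was 1.07 on the log2 scale (SE 0.190, limma adjusted p = 0.0884). Gfer, the sulfhydryl oxidase that recharges Chchd4, had 18.8, 16.5 and 21.0 FPKM in KO and 6.57, 8.51 and 13.9 FPKM in WT (log2 fold change 0.98, SE 0.274, limma adjusted p = 0.129). In both genes the KO libraries lay close together and above WT. WT replicate 3 was the highest WT library for both.

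Among the small TIM chaperones, which form ring-shaped hexamers that shield hydrophobic chains, 4 of 6 measured members were higher at an unadjusted p under 0.05 (11.5% of all genes), and 4 of 6 were higher in each KO library than in each WT library (14.5% of all genes). Timm9 and Timm10 build the main hexamer. Timm9 (ENSMUSG00000021079, mm10 chromosome 12, 71123173 to 71136684, minus strand) had 10.2, 11.3 and 7.38 FPKM in KO and 4.36, 3.65 and 4.43 FPKM in WT (log2 fold change 1.11, SE 0.199, limma adjusted p = 0.0884). Timm10 (ENSMUSG00000027076, mm10 chromosome 2, 84826997 to 84830213, plus strand) had 31.9, 49.0 and 28.1 FPKM in KO and 12.6, 9.59 and 16.4 FPKM in WT, a log2 fold change of 1.45 (SE 0.277, limma adjusted p = 0.0887). The KO mean was 2.32 times the WT mean for Timm9 and 2.82 times for Timm10.

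Timm8a1 and Timm13 form a second hexamer, and the human counterpart of Timm8a1 is the gene of a deafness and dystonia syndrome. Timm8a1 had the largest log2 fold change of the 33 members, 1.67 (SE 0.454, limma adjusted p = 0.124), with 63.2, 93.8 and 35.0 FPKM in KO and 17.1, 11.6 and 30.9 FPKM in WT. The lowest KO library and the highest WT library were both replicate 3 and lay close together. Timm8a1 and Timm17b are the X-linked members, and KO replicate 3 differed from the other libraries in Xist and Ddx3y. Among KO libraries, replicate 3 was lowest for Timm8a1. For Timm17b it was the highest library of both groups, at 14.3 FPKM against 10.03 to 12.9 FPKM elsewhere. The part of sex in these values was not tested. Timm13 had 49.6, 41.9 and 52.6 FPKM in KO and 25.6, 27.7 and 41.2 FPKM in WT (log2 fold change 0.62, limma adjusted p = 0.176).

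Timm8b, a relative of Timm8a1, had 151, 302 and 66.2 FPKM in KO and 75.5, 66.5 and 77.6 FPKM in WT (log2 fold change 0.98, SE 0.503, limma adjusted p = 0.301). KO replicate 3 was here the lowest of the 6 libraries. Timm10b, which links the chaperones to TIM22, was the member of lowest level that was tested, at 0.748 ± 0.173 FPKM in KO and 1.02 ± 0.129 FPKM in WT (SD, n = 3 each), with 33 to 53 reads per KO library and 52 to 72 per WT library. Its log2 fold change was -0.29 (limma adjusted p = 0.520), and 10.5% of its exon bases overlap Gm45799 on the same strand. Timm8a2 lay under the level needed for testing, with 3, 1 and 1 reads in KO and 4, 4 and 6 reads in WT.

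The TIM22 translocase receives the carriers. Its channel gene Timm22 had 17.8, 22.1 and 12.3 FPKM in KO and 11.0, 9.90 and 11.4 FPKM in WT (log2 fold change 0.63, SE 0.229, limma adjusted p = 0.182), with no overlap between groups. Timm29, a metazoan subunit of this translocase, had 11.8, 10.02 and 16.3 FPKM in KO and 11.4, 12.4 and 14.7 FPKM in WT. The KO range contained the WT range (log2 fold change -0.04, limma adjusted p = 0.933).

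The TIM23 translocase handles presequence proteins. Timm23, its channel-forming subunit (ENSMUSG00000013701, mm10 chromosome 14, 32180162 to 32201898, minus strand), had 70.0, 78.1 and 74.2 FPKM in KO and 33.8, 27.2 and 38.1 FPKM in WT. Of its exon bases, 5.82% overlap the snoRNA gene Gm23946 on the same strand. The group means of Timm23 were 74.1 ± 4.04 FPKM in KO and 33.0 ± 5.47 FPKM in WT (SD, n = 3 each). It had the smallest unadjusted p of the 33 members (log2 fold change 1.17, SE 0.178, limma adjusted p = 0.0884). Leaving out KO replicate 3 gave 1.16, leaving out KO replicate 2 gave 1.13, and rescaling each library to the same total gave 0.90. The limma adjusted p varied more. With single libraries left out it ran from 0.0344 (without KO replicate 3) to 0.4265 (without WT replicate 2), and it was 0.177 with the same totals.

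Timm50, the receptor of the translocase that takes over precursors from TOM, had 37.8, 38.9 and 31.1 FPKM in KO and 18.9, 14.97 and 29.2 FPKM in WT (log2 fold change 0.81, limma adjusted p = 0.155). The groups did not overlap, although KO replicate 3 and WT replicate 3 were close. Timm21, which couples TIM23 to TOM and to respiratory chain assembly, varied widely, with 51.1, 83.0 and 23.8 FPKM in KO and 33.3, 25.7 and 27.6 FPKM in WT (log2 fold change 0.69, limma adjusted p = 0.379).

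Timm17a and Timm17b are alternative subunits that pair with Timm23. Timm17a had 11.1, 13.0 and 7.59 FPKM in KO and 5.63, 5.11 and 5.64 FPKM in WT (log2 fold change 0.86, SE 0.216, limma adjusted p = 0.113). Timm17b had 11.5, 11.9 and 14.3 FPKM in KO and 10.03, 12.9 and 12.4 FPKM in WT (log2 fold change 0.09, SE 0.171, limma adjusted p = 0.784). The sign of the Timm17b value was negative without KO replicate 3 and with equal totals. Within each library, the ratio of Timm17a to Timm17b was 0.967, 1.09 and 0.529 in KO and 0.562, 0.395 and 0.453 in WT. In KO replicates 1 and 2 the paralogues were thus at similar levels, while KO replicate 3 lay within the WT range. The mean difference in log2 ratio was 0.77, for which an exact 2-sided permutation test gave p = 0.2.

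**Figure D2:**
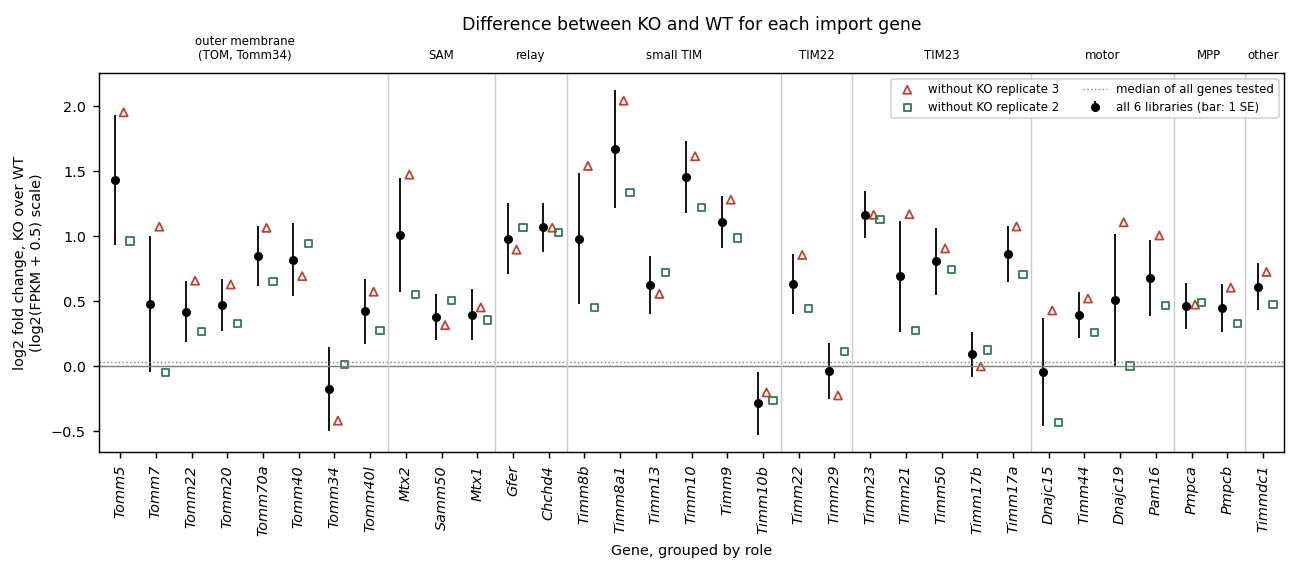
Log2 fold change of KO over WT on the log2(FPKM + 0.5) scale for each measured import gene; black points, all 6 libraries with 1 SE; red triangles, without KO replicate 3; green squares, without KO replicate 2; dotted line, median of all genes tested (0.03). Of the 33 points, 29 lie above 0, and Timm8a1 is highest at 1.67.

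The import motor pulls chains into the matrix. Timm44, which anchors the chaperone Hspa9 to the channel, had 29.2, 35.5 and 24.5 FPKM in KO and 22.7, 22.5 and 21.5 FPKM in WT, with no overlap (log2 fold change 0.39, limma adjusted p = 0.251). Pam16, a J-like protein that restrains the motor, had 19.7, 22.7 and 10.4 FPKM in KO and 9.15, 10.2 and 11.6 FPKM in WT (log2 fold change 0.68, limma adjusted p = 0.235). Dnajc19, a J protein that stimulates Hspa9, had 18.8, 34.2 and 7.004 FPKM in KO and 11.9, 10.7 and 12.03 FPKM in WT. KO replicate 3 was the lowest of all 6 libraries for Dnajc19, and its log2 fold change of 0.51 was 0.00 without KO replicate 2.

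Dnajc15, a relative of Dnajc19, had 41.5, 62.9 and 18.8 FPKM in KO and 43.9, 38.9 and 31.7 FPKM in WT, with a log2 fold change of -0.04 (SE 0.418, limma adjusted p = 0.962). The KO libraries stood on both sides of WT, and the sign reversed without KO replicate 3. The ratio of Dnajc15 to Dnajc19 was 2.20, 1.84 and 2.68 in KO and 3.68, 3.64 and 2.63 in WT. On the log2(FPKM + 0.5) scale the ratio was lower in each KO library (difference -0.56, exact 2-sided permutation p = 0.1, the smallest that 3 against 3 allows). There KO replicate 3 and WT replicate 3 were almost equal, at 1.3605 and 1.3614, and on plain FPKM their order was the other way round.

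The processing peptidase removes presequences. Its subunits Pmpca, which grips the presequence, and Pmpcb, which cuts it, were both higher in each KO library (14.5% of all genes were). Pmpca had 23.8, 21.6 and 22.1 FPKM in KO and 14.05, 15.2 and 19.9 FPKM in WT (log2 fold change 0.46, limma adjusted p = 0.196). In Pmpcb the values were 16.8, 18.5 and 12.5 FPKM in KO and 11.6, 10.7 and 11.9 FPKM in WT (log2 fold change 0.44, limma adjusted p = 0.223). The subunits work as a dimer, and their ratio was 1.42, 1.17 and 1.77 in KO and 1.21, 1.42 and 1.67 in WT, with a mean difference of 0.02 on the log2 scale (exact permutation p = 0.9). Timmdc1, an assembly factor of respiratory complex I that shares only the name and fold of the family, had 13.1, 16.5 and 11.5 FPKM in KO and 8.49, 8.03 and 9.64 FPKM in WT (log2 fold change 0.61, limma adjusted p = 0.136).

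FPKM ratios within a library do not depend on how libraries were scaled to each other. In all, 9 pairs of paralogues or partners were compared. On plain FPKM the groups of Dnajc15 to Dnajc19 overlapped at replicate 3, and on the log2(FPKM + 0.5) scale used for the tests they did not. The groups of Timm23 to Timm22 did not overlap on either scale. For the channel genes Timm23 and Timm22 the ratio was 3.94, 3.53 and 6.05 in KO and 3.08, 2.75 and 3.34 in WT, a difference of 0.53 on the log2 scale (exact permutation p = 0.1). Adjusted over the 9 pairs, the p-values were 0.45 to 0.9. The ratio of Chchd4 to Gfer, the partners of the relay, differed by 0.09 (exact permutation p = 0.7), and that of Tomm20 to Tomm22 by 0.05 (exact permutation p = 0.7). The remaining differences were 0.69 for Timm8a1 to Timm8b (exact permutation p = 0.2), 0.40 for Tomm40 to Tomm40l (exact permutation p = 0.4) and -0.61 for Mtx1 to Mtx2 (exact permutation p = 0.4).

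**Figure D3:**
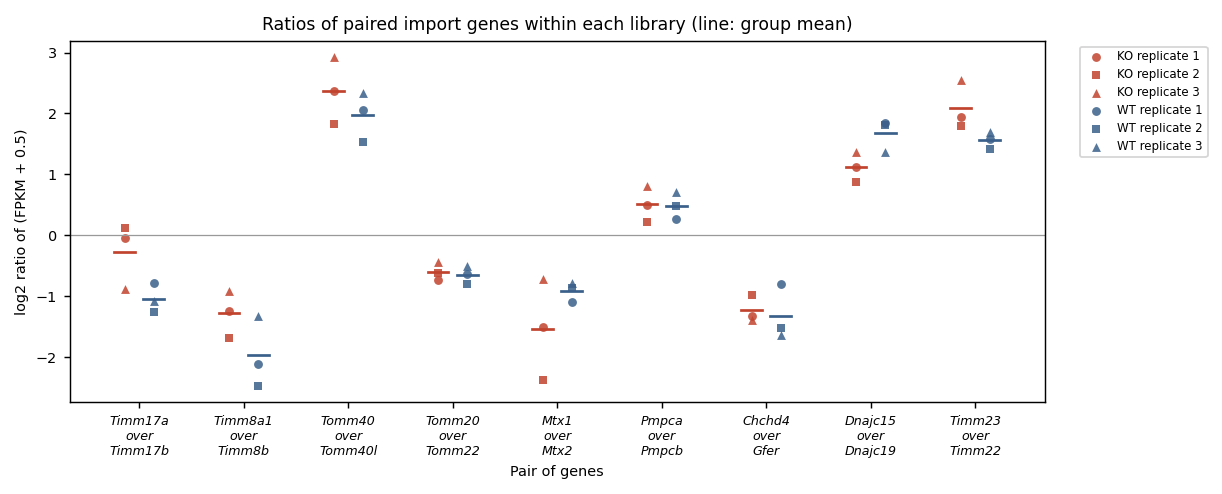
Log2 ratio of (FPKM + 0.5) of the first gene over the second within each library for 9 pairs; red, KO; blue, WT; marker shape, replicate number; short line, group mean. The Timm23 to Timm22 ratio is higher and the Dnajc15 to Dnajc19 ratio lower in each KO library, with replicate 3 of both groups almost equal for Dnajc15 to Dnajc19.

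The KO libraries differed from each other in the import genes. KO replicate 1 lay above all WT libraries for 28 of 33 members, KO replicate 2 for 27 and KO replicate 3 for 20. KO replicate 2 was the highest KO library in 24 members and KO replicate 3 the lowest in 23. These counts by single library were not made over all genes. For 9 members the level in KO replicate 2 was over 2 times that in KO replicate 3, up to 4.89 times for Dnajc19 and 4.77 times for Tomm7. Timm23 and Chchd4 were at 1.05 and 1.06 times. The totals behind the FPKM of KO replicates 2 and 3 were 0.780 and 1.096 times their reads. Each of these ratios is therefore higher than it would be with scaling to the reads. This gap between KO replicates 2 and 3 also varied with length. On the log2(FPKM + 0.5) scale its median was 0.78 for the 17 shorter members and 0.57 for the 16 longer ones, against 0.26 and -0.19 for shorter and longer genes of the whole table. The part of length in the members' values was not tested. In 26 members KO replicates 1 and 2 were both above every WT library (28.2% of all genes). Of these 26, KO replicate 3 was above WT in 16, within the WT range in 5 and below it in 5. Over all genes, KO replicates 1 and 2 were both above every WT library in 3564, and KO replicate 3 was also above in 1837 of these. The split into within and below was not made over all genes. The members' share of all reads was 0.306%, 0.332% and 0.256% in KO replicates 1 to 3 and 0.202%, 0.190% and 0.237% in WT replicates 1 to 3, so the groups did not overlap in this share.

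The mean of the 33 members on the log2(FPKM + 0.5) scale, relative to each gene's WT mean, was 0.70, 0.94 and 0.30 in KO replicates 1 to 3 and -0.06, -0.15 and 0.21 in WT replicates 1 to 3. The same mean over all genes tested was 0.03, 0.07 and -0.0009 in KO replicates 1 to 3 and -0.003 to 0.006 in WT. WT replicate 3 was the highest WT library in 27 of 33 members, a count that was not made over all genes. The relay genes were the group in which KO replicate 3 was not the lowest KO library, at 0.98, 0.98 and 1.11 in KO. The motor genes had a mean of 0.53, 1.0045 and -0.38 in KO and -0.02 to 0.03 in WT, so that this mean was lowest in KO replicate 3. There Dnajc15 and Dnajc19 were below every WT library, Pam16 was within the WT range and Timm44 above it. The summed level of 4 replication-dependent histone genes, whose transcripts lack poly(A) tails, was 80.6, 110.7 and 37.4 FPKM in KO and 38.7, 34.2 and 102.1 FPKM in WT. The sum was planned as a check of RNA quality. Such genes are also expressed with DNA replication, and RNA quality and replication cannot be told apart here. The order of the KO libraries was the same in the members' mean, in the mitochondrially encoded reads and in the histones. Among WT libraries, replicate 3 was highest in the members' mean and in the histones but lowest in the mitochondrially encoded reads, at 3.38% against 4.76% and 4.21% in WT replicates 1 and 2. The part of these quantities in the members' values was not tested.

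**Figure D4:**
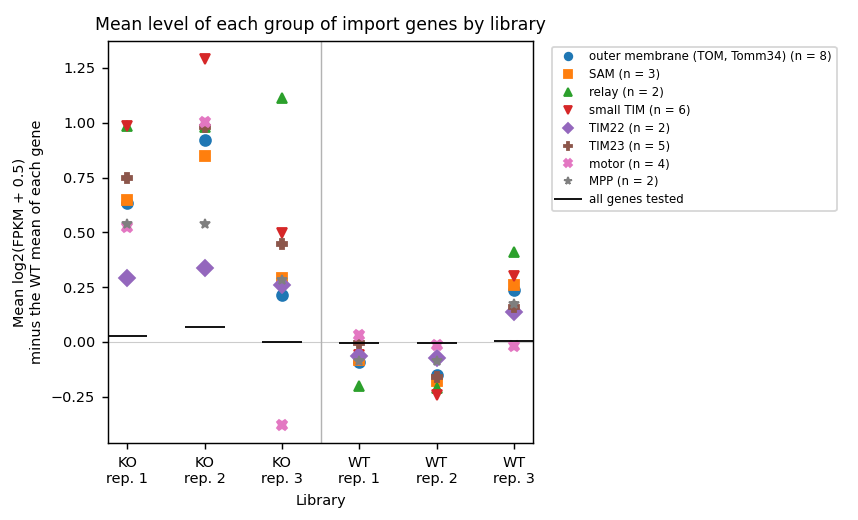
Mean log2(FPKM + 0.5) of each role group minus the WT mean of each gene, by library; marker and colour give the role, the black dash is the mean of all genes tested. The relay pair stays near 1 in all KO libraries, and the motor group is at -0.38 in KO replicate 3.

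Leaving out single libraries changed the calls. Without KO replicate 3, limma called 17 of the 33 members at an adjusted p under 0.05, all higher in KO, where 13.7% of all genes were called. These were Timm23, Chchd4, Timm9, Timm10, Timm17a, Timm8a1, Tomm70a, Timmdc1, Tomm5, Timm22, Pmpcb, Mtx2, Pam16, Timm8b, Tomm22, Timm21 and Dnajc19, with adjusted p from 0.0344 to 0.0448 in limma. Gfer and Timm50 were not among them (adjusted p = 0.0990 and 0.0785). At an unadjusted p under 0.05, 23 members were higher (19.5% of all genes) and 0 lower (15.5%). In 26 members both remaining KO libraries lay above WT (28.2% of all genes), and in 0 both lay below (25.1%). The share of all genes above 0 was 51.9%, against 29 of 33 members.

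Leaving out KO replicate 2 in its place gave 0 called members (0.0395% of all genes). There 14 were higher at an unadjusted p under 0.05 (9.92% of all genes) and 0 lower (8.31%), and 30 were above 0 (51% of all genes). The remaining groups did not overlap for 18 members higher in KO (19.5% of all genes) and 0 lower (16.9%). When libraries were rescaled to a common FPKM total, the median log2 fold change was 0.36 for the members and -0.20 for the whole table. In that scaling limma called 0 members (0.0395% of all genes), 9 were higher at an unadjusted p under 0.05 (3.83%) and 0 lower (12.9%). Groups did not overlap for 10 members higher (5.7%) and 1 lower (17%), and 28 of 33 members were above 0 (34.3% of all genes), with Timm17b among those below.

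Among 24 other genes that serve import, chosen by function, 22 were higher in KO (52.4% of all genes were) and 0 were called by limma over all genes (0.0395%). At an unadjusted p under 0.05, 11 were higher (11.5% of all genes) and 0 lower (10.2%). The median log2 fold change of the 24 genes was 0.52, and that of all genes 0.03. Inside the matrix, Hspa9, the chaperone of the motor, had 190.8, 175 and 242.5 FPKM in KO and 68.4, 61.7 and 102.3 FPKM in WT (log2 fold change 1.40, SE 0.250, limma adjusted p = 0.0884). Each KO library lay above each WT library, with KO replicate 3 the highest. Its nucleotide exchange factors Grpel1 and Grpel2 had log2 fold changes of 0.72 and 0.53 (limma adjusted p = 0.159 and 0.138), and Dnlz, which keeps Hspa9 soluble, 0.51 (limma adjusted p = 0.150). The folding chaperonin of the matrix, Hspd1 with its lid Hspe1, had log2 fold changes of 1.19 and 0.93 (limma adjusted p = 0.0954 and 0.212).

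Mipep, which trims further residues after Pmpcb has cut, averaged 6.18 ± 0.551 FPKM in KO and 3.87 ± 1.25 FPKM in WT (SD, n = 3 each; limma adjusted p = 0.178). Pitrm1, which degrades freed presequences, averaged 14.3 ± 1.78 FPKM in KO and 9.36 ± 2.88 FPKM in WT (SD, n = 3 each; limma adjusted p = 0.191), and its groups overlapped. Hsp90aa1, a cytosolic chaperone that hands precursors to Tomm70a, had 720, 1010 and 373 FPKM in KO and 246, 189.8 and 262 FPKM in WT (log2 fold change 1.49, limma adjusted p = 0.115). The constitutive Hsp90ab1 had a log2 fold change of 0.14 (limma adjusted p = 0.828), and the cochaperone Stip1 0.67 (limma adjusted p = 0.181). Oxa1l, which inserts proteins from the matrix side, was lower in each KO library, at 12.4, 12.6 and 14.1 FPKM in KO and 15.3, 16.5 and 15.8 FPKM in WT (log2 fold change -0.27, limma adjusted p = 0.302). Agk, a TIM22 subunit that is also a lipid kinase, and Mtx3 had log2 fold changes of 0.10 and 0.02.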

How the data were processed

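The authors deposited 1 FPKM value per gene and sample. The submitters' processing notes name, with no role, the mm10 build, DESeq2, featureCounts 1.5.0-p3, HISAT2 2.0.5 and Trim Galore. Per the labels' protocols, the libraries came from a stranded mRNA kit. Neither strand setting nor annotation is given in the sources used here. The deposited gene length, a column of another kind in bases, times FPKM fell on whole multiples of 1 step for at least 99.99% of values (tolerance 0.05), from which reads were rebuilt. Coordinates are those of GENCODE M21, which matched 54409 identifiers, all members included.

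KO was set against WT by the 2-sided moderated test of limma 3.58.1 (R 4.3.3, with eBayes and its trend option). Values entered as log2(FPKM + 0.5), a scale that understates changes of low genes. The 12654 genes averaging 0.5 FPKM or more were tested. P-values were adjusted by Benjamini-Hochberg over all of them. The step was tested on simulated data. The members and lists were chosen with earlier results of these data known. Values per library were given for members with an unadjusted p under 0.05, the highest and the most different of each role, the paired genes, Timm23 and Tomm20, and for the others because the family is small. Named genes of the other import list were picked for their role after their values were seen. Protein sequences were not used here. Alternatives covered pseudocount, filter, scaling, variance model, sample weights, limma-voom on rebuilt reads, a replicate block and each library left out. Plots used matplotlib 3.10.9, and tables used scipy 1.17.1 and pandas 2.3.3 under Python 3.11.15.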

Additional observations from a re-analysis of the deposited data

How the results depend on the processing

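Counts of called genes over the table (5) were 1 with limma-voom on rebuilt reads, 3 without a filter and with a pseudocount of 1, 14 without the mean-variance trend, 12 with the replicate block, and 2 to 1733 with single libraries left out, the highest without KO replicate 3. The count of called members (0) was 0 in every alternative except without KO replicate 3 (0 to 17 over the libraries left out) and with sample weights. Sample weights gave 7200 called genes and 28 called members. With these weights 28 members and 4159 of all genes were higher at an unadjusted p under 0.05. In the other import list 19 were higher and 2 lower. That fit did not converge and gave KO replicate 1 a weight of 36.4, against 0.230 and 0.154 for KO replicates 2 and 3. Members higher in KO at an unadjusted p under 0.05 (16) were 9 with equal totals and 9 to 23 with single libraries left out, with 9 without KO replicate 1, WT replicate 1 or WT replicate 2. Over all 12654 genes the same count (1459) was 485 with equal totals and 715 to 2470 with single libraries left out. Without a filter, 1 member, Timm8a2, and 1 gene of the other list were lower at that p. Members whose groups did not overlap (16) numbered 16 to 26 with single libraries left out. Without KO replicate 1 or WT replicate 1, 1 of them was lower in KO. The 18 without KO replicate 2 stood beside 19.5% of all genes higher and 16.9% lower without overlap. Shares over all genes with a library left out were made only for KO replicates 2 and 3. The count of 26 was without KO replicate 3, where 28.2% of all genes were higher and 25.1% lower without overlap. With all 6 libraries these shares were 14.5% and 13.3%. The members' median log2 fold change was 0.36 with equal totals and 0.46 to 0.86 with single libraries left out. For the other import list the median (0.52) was 0.27 with equal totals, where 4 were higher. With single libraries left out, 3 to 14 genes of that list were higher, and 0 to 1 lower, at an unadjusted p under 0.05.

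Of 416 values of 26 named members under the alternatives, 369 kept sign and call, and 40 passed the threshold only there. All 40 came with sample weights, the fit that did not converge, or without KO replicate 3. Those settings called 7200 and 1733 of all 12654 genes. The remaining 7 values changed sign. Those were Dnajc15 (0.051 with sample weights, -0.43 to 0.43 with single libraries left out, positive without KO replicate 3 or WT replicate 1) and Timm17b (-0.17 with equal totals, -0.0056 with sample weights, -0.016 to 0.16 with single libraries left out, negative without KO replicate 3 or WT replicate 1). With single libraries left out, the log2 ratios changed sign for Tomm20 to Tomm22 (-0.029 to 0.12, negative without KO replicate 3 or WT replicate 2), Pmpca to Pmpcb (-0.13 to 0.16, negative without KO replicate 3 or WT replicate 1) and Chchd4 to Gfer (-0.070 to 0.35, negative without KO replicate 2, WT replicate 2 or WT replicate 3). The causes were not tested. Same-numbered KO and WT libraries deviated from their group means with correlations of 0.13, 0.07 and 0.33 over genes. The labels do not say what the numbers share, and KO replicate 2 correlated best with WT replicate 1. With the replicate block, 12 genes and 0 members were called. That fit gave 14 members an unadjusted p under 0.05, all with higher levels in KO. Of all 12654 genes, 1565 passed this limit with higher levels in KO and 1360 with lower levels.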
